A study of Caenorhabditis elegans with 11 samples.

Results

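The data describe a run of 35 neighbouring protein-coding genes on chromosome IV of Caenorhabditis elegans, from nlr-1 to wht-5 inclusive in the gene order of the WBcel235 assembly. The run was chosen on these same arrays, by the lower values of many of its genes in strain BW1940 than in strain LT186, so every strain difference given for its members describes the choice and is no test of it. Of the 35 genes, 32 have a probe set that names a single gene, out of 17118 such genes on the array, and no such probe set was found for hpo-12, erl-1 and F19B6.10. For a gene with several, the brightest by its mean over the 11 arrays was read.

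RNA came from synchronized populations of hermaphrodites at the L4 stage, the last larval stage, fed on Escherichia coli OP50 and hybridized to the Affymetrix C. elegans array. BW1940 (5 biological replicates, called dbl-1 in the labels) carries the integrated transgene ctIs40, which holds a cosmid with wild-type dbl-1 and a sur-5::gfp marker, and overexpresses the ligand. LT186 (6 biological replicates, called sma 6 in the labels) is mutant for the type I receptor, since its allele sma-6(wk7) ends the protein early and leaves no working receptor. Both arms are altered, wild-type arrays were not analysed here, and a difference between the strains may therefore come from either one. Each strain was examined as 1 line, so that the named allele or transgene and any other difference in that strain's genome cannot be told apart. DBL-1 is a BMP-like ligand, a member of the TGFβ superfamily, that binds receptors including SMA-6 and acts through Smad proteins in the hypodermis to set body length. sma-6 lies on chromosome II and dbl-1 on chromosome V, and no source used here gives the insertion site of ctIs40.

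The values are the authors' expression estimates, an intensity scaled to 100 on each array. They have no fixed background and can fall below 0, and differences between strains were fitted with limma on log2(value + 10) with values below 0 set to 0, which understates the change of dim genes. All differences run BW1940 minus LT186 and all ratios BW1940 over LT186. The array medians were 37.0 to 39.96 in BW1940 and 34.2 to 38.8 in LT186. BW1940 replicate 1 and LT186 replicates 2 and 4 stood apart by low values of sperm-specific genes, as set out with the sperm score. The probe set of sma-6 with the higher mean read 102 ± 19.6 in BW1940 and 31.3 ± 2.79 in LT186 (SD, n = 5 and 6), a log2 fold change of 1.42 (SE 0.13, limma adjusted p = 0.000312), and the arrays of the strains did not overlap. dbl-1 read 79.4 ± 21.5 in BW1940 and 57.3 ± 14.1 in LT186 on its brighter probe set, a log2 fold change of 0.40 (limma adjusted p = 0.318). Its other probe set read 47.0 ± 16.2 in BW1940 and 22.1 ± 4.74 in LT186, a ratio of 2.13 and a log2 fold change of 0.78 (limma adjusted p = 0.117, unadjusted p = 0.00367), with overlapping arrays. Neither probe set of dbl-1 passed the test after adjustment.

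As background, the genes of the run code for proteins of unrelated kinds. They include a neurexin-like adhesion receptor (nlr-1), a subunit of the prolyl hydroxylase that modifies cuticle collagen (phy-2), a family of class E chemoreceptors (sre genes), O-acyltransferase-like genes (oac), a protein of the large ribosomal subunit (rpl-34), and partners of ubiquitin-dependent and endosomal protein sorting (ufd-1, vps-8). Neighbouring genes in C. elegans are often unrelated in function, although some are transcribed together in operons. Strand and operon structure were not analysed here.

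Most members of the run had lower values in BW1940 than in LT186. Of the 31 members that passed the filter on low values (at least 10 on at least 2 arrays), 29 had a log2 fold change below 0, with a median of -0.71 (quartiles -1.04 and -0.43, range -1.33 to 0.28), beside a median of 0.07 over all 14297 genes tested. Lower calls numbered 13 among these members, where 0.35% of all genes tested were called lower (limma, adjusted p under 0.05), and 18 members were lower on every BW1940 array than on any LT186 array, where 1.62% of all genes were. The 13 became 6 without BW1940 replicate 3 and 8 without BW1940 replicate 1 or LT186 replicate 1, all among the same 13. Nothing is read from these shares, since the same contrast chose the run. No member was called higher by limma, 0 were higher at an unadjusted p under 0.05, and the methods' t-test gave 0 as well. In whole animals, fewer cells of a type and less RNA per cell cannot be told apart.

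**Figure D1:**
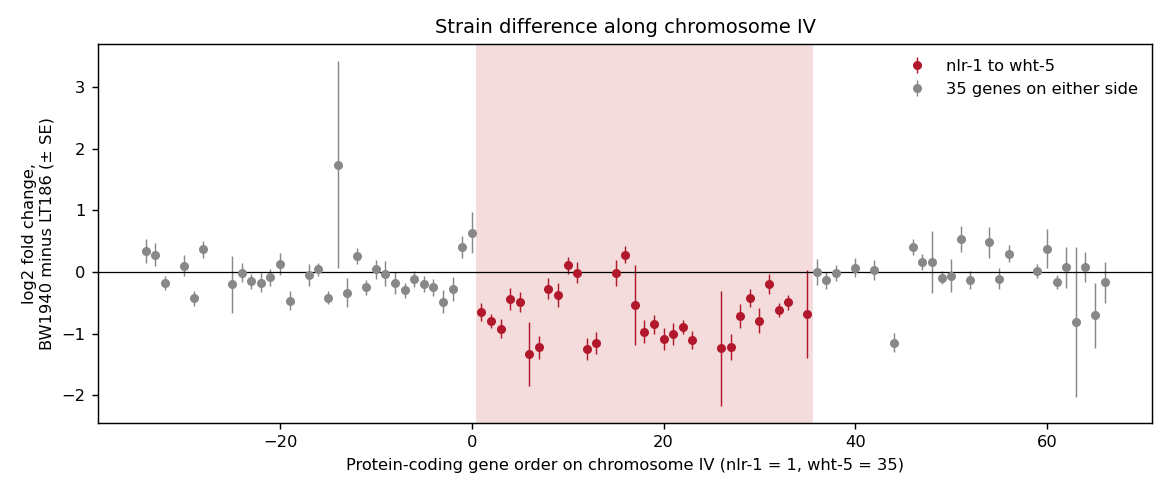
Log2 fold change (BW1940 minus LT186, with its standard error) of each gene by its place in the chromosome IV gene order, for the 35 genes of the run and 35 on either side. Within the run 29 of 31 tested genes lie below 0, with a median of -0.71, while the genes before and after have medians of -0.12 and 0.01.

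The genes just inside and just outside the ends of the run had the following values. The first member, nlr-1, read 42.5, 33.8, 37.3, 32.5 and 48.9 on the BW1940 arrays, against LT186 arrays with lowest 53.7, median 61.9, highest 88.99. Every BW1940 array lay below every LT186 array, and the means of 39 ± 6.73 in BW1940 and 66.9 ± 13.4 in LT186 gave a ratio of 0.583 and a log2 fold change of -0.64 (SE 0.14). The gene just before it, F20B10.3, read 79.2 ± 29.8 in BW1940 and 49.8 ± 24.1 in LT186, a log2 fold change of 0.63 in the opposite direction with overlapping arrays. Further out, eri-12, named for enhanced RNA interference, had a log2 fold change of 0.41, and B0001.7 had -0.28.

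The last member, wht-5, is a member of the White family of ABC transporters. It read -3.01, 31.1, 10.2, 36.1 and 19.2 in BW1940, against LT186 arrays with lowest -0.775, median 65.6, highest 95.8. The strains overlapped, with LT186 replicates 2 and 4 near 0, and the log2 fold change was -0.68 (SE 0.72). Just after it, best-22, a bestrophin-family gene, read 72.0 ± 15.6 in BW1940 and 73.6 ± 24.0 in LT186, a ratio of 0.977. The next genes, sec-24.2 of the COPII vesicle coat and the deadenylase ccr-4, had log2 fold changes of -0.14 and -0.01.

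Beyond the run, lower values of this kind were fewer but not absent. Of 31 tested genes among the 35 before nlr-1, 20 had a log2 fold change below 0 and 0 were called by limma. At an unadjusted p under 0.05, a share not counted over all genes, 5 were lower and 2 higher, and the methods' t-test called 1 lower. M18.3 was lower on every BW1940 array than on any LT186 array (ratio 0.714), and K08E4.3 was higher on every one (ratio 1.37). Over all 14297 genes tested, 232 were lower and 421 higher in this way, so nothing is read from these 2 genes. With the sperm score, defined below, in the fit, limma called 4 of these 31 lower and 1 of the 24 tested after wht-5, where 5.05% of all genes were. Of 24 tested genes among the 35 after wht-5, 12 were below 0, and at an unadjusted limma p under 0.05, 1 was lower and 2 were higher. After adjustment limma called 1 of them lower. That gene, F28D1.6, stands 9 genes past wht-5 and read 9.24, 18.6, 15.5, 16.4 and 15.6 in BW1940, against LT186 arrays with lowest 32.4, median 48.6, highest 54.7. Its arrays did not overlap, and its ratio was 0.332 (log2 fold change -1.14, SE 0.15). The other large log2 fold changes on the flanks were 1.74 for the cuticle collagen col-129, -0.48 for B0001.2, -0.81 for smz-1, which codes for a sperm PDZ protein, and -0.70 for C25G4.8, each with overlapping arrays.

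A mean of at least 50 over the 11 arrays was reached by 18 members. Of these, 17 had a ratio below 1, with a median of 0.525 and quartiles of 0.443 and 0.573, and 11 lay between 0.4 and 0.7. In 16 of the 17 every BW1940 array lay below every LT186 array, with ratios between 0.379 for Y39C12A.9 and 0.714 for F19B6.1. The exception was C42C1.9, which averaged 11.9 ± 38.9 in BW1940 and 86.4 ± 85.8 in LT186 with arrays below 0 in both strains, so that its means give no usable ratio. It is still counted among the 17 and in their median and quartiles. Of the 14 dimmer members, dnj-26 and oac-58 were separated on every array, and all of the 13 that were tested except sre-19 had a log2 fold change below 0. For oac-58 the gap was narrow and below the filter value of 10, with a highest BW1940 array of 6.79 and a lowest LT186 array of 6.99. sre-14, which did not pass the filter, averaged -0.300 in BW1940 and 3.32 in LT186.

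**Figure D2:**
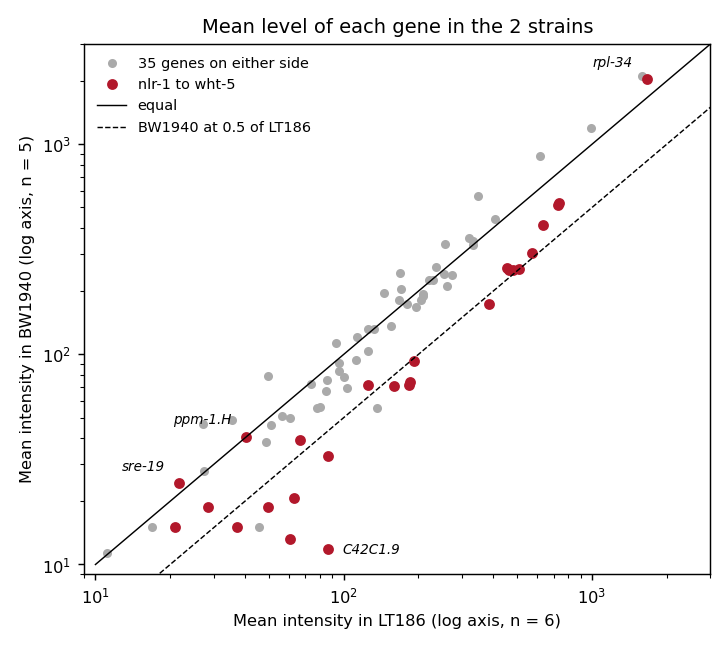
Mean intensity in BW1940 (y axis, n = 5) against that in LT186 (x axis, n = 6), both on log axes that start at 9, for members (red) and for 35 genes on either side (grey) with a mean of at least 10 in both strains, and lines at equal values and at a ratio of 0.5. Bright members gather near the lower line, with a median ratio of 0.525 over 17 of them (C42C1.9 included). In contrast, rpl-34 at 1.22 lies among the flanking genes near the line of equal values.

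The longest stretch of members with fully separated arrays ran over 6 consecutive genes, vps-8 to C42C1.19. vps-8, homologous to a subunit of the endosomal CORVET tethering complex, read 74.8, 111, 90.2, 71.9 and 118 in BW1940, against LT186 arrays with lowest 153, median 174, highest 268. vkmt-1, homologous to the lysine methyltransferase of VCP, read 72.0, 66.5, 66.3, 46.7 and 102 in BW1940, against LT186 arrays with lowest 129, median 156, highest 211. In both genes the highest BW1940 array was below the lowest LT186 array, and the log2 fold changes were -0.97 (SE 0.19) and -1.09 (SE 0.18).

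ltah-1.1, a homologue of leukotriene A4 hydrolase, a zinc metallopeptidase, read 192, 278, 194, 238 and 375 in BW1940, against LT186 arrays with lowest 446, median 488, highest 624. C42C1.19 read 145, 169.9, 205, 151 and 199 in BW1940, against LT186 arrays with lowest 311, median 372, highest 517. The BW1940 arrays were the lower ones throughout, by a log2 fold change of -0.998 (SE 0.18) for ltah-1.1 and -1.096 (SE 0.15) for C42C1.19. The remaining genes of the stretch were tag-335, a homologue of mannose-1-phosphate guanylyltransferase, with 252 ± 40.4 in BW1940 and 463 ± 91.3 in LT186 (ratio 0.543), and C42C1.12, with 252 ± 10.4 in BW1940 and 479.9 ± 75.8 in LT186 (ratio 0.525).

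Past the unmeasured hpo-12 and erl-1, C42C1.8 read 46.8, 88.4, 60.8, 91.2 and 83.7 in BW1940, against LT186 arrays with lowest 131, median 185, highest 246. Its arrays did not overlap, and BW1940 replicate 1 was the lowest of the 11, for a log2 fold change of -1.22 (SE 0.21). The next genes are an oac group of O-acyltransferase homologues. oac-59 averaged 71.8 ± 16.1 in BW1940 and 125 ± 33.7 in LT186 (ratio 0.573). Its highest BW1940 array read 88.1 and its lowest LT186 array 88.25. oac-57 averaged 18.8 ± 5.17 in BW1940 and 28.4 ± 5.62 in LT186 with overlapping arrays. oac-58 averaged 3.25 ± 2.79 in BW1940 and 13.7 ± 6.79 in LT186, separated only by the narrow gap given above. Near the end of the run, ufd-1, a cofactor of the CDC-48 segregase in protein degradation, averaged 412 ± 49.0 in BW1940 and 636 ± 52.5 in LT186 (ratio 0.649), and F19B6.1 averaged 527 ± 88.9 in BW1940 and 738 ± 44.4 in LT186 (ratio 0.714).

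In the first part of the run, mlt-3, named for a defect in molting, read 54.4, 82.1, 81.6, 74.9 and 64.9 in BW1940, against LT186 arrays with lowest 138, median 163, highest 266. The lowest LT186 array was well above the highest BW1940 array, and the ratio was 0.390 (log2 fold change -1.22, SE 0.18). F35G2.1 averaged 259 ± 27.9 in BW1940 and 455 ± 41.8 in LT186 (ratio 0.569), and marb-1 averaged 305 ± 77.9 in BW1940 and 574 ± 51.2 in LT186 (ratio 0.530). phy-2, the collagen prolyl hydroxylase subunit, averaged 516 ± 89.6 in BW1940 and 728 ± 151 in LT186, and its ratio of 0.709 was among the mildest of the bright members, though its arrays did not overlap.

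dnj-26, which codes for a DnaJ-domain protein of the co-chaperone type, read 18.1, 20.3, 12.97, 23.6 and 28.5 in BW1940, against LT186 arrays with lowest 46.4, median 59.3, highest 87.8. Its neighbour Y39C12A.9 read 28.2, 27.9, 42.3, 27.6 and 37.2 in BW1940, against LT186 arrays with lowest 52.4, median 89.6, highest 112. Both were separated on every array, with ratios of 0.328 for dnj-26 and 0.379 for Y39C12A.9 and log2 fold changes of -1.25 (SE 0.18) and -1.16 (SE 0.18). They stand among the sre genes, whose arrays overlapped between the strains.

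**Figure D3:**
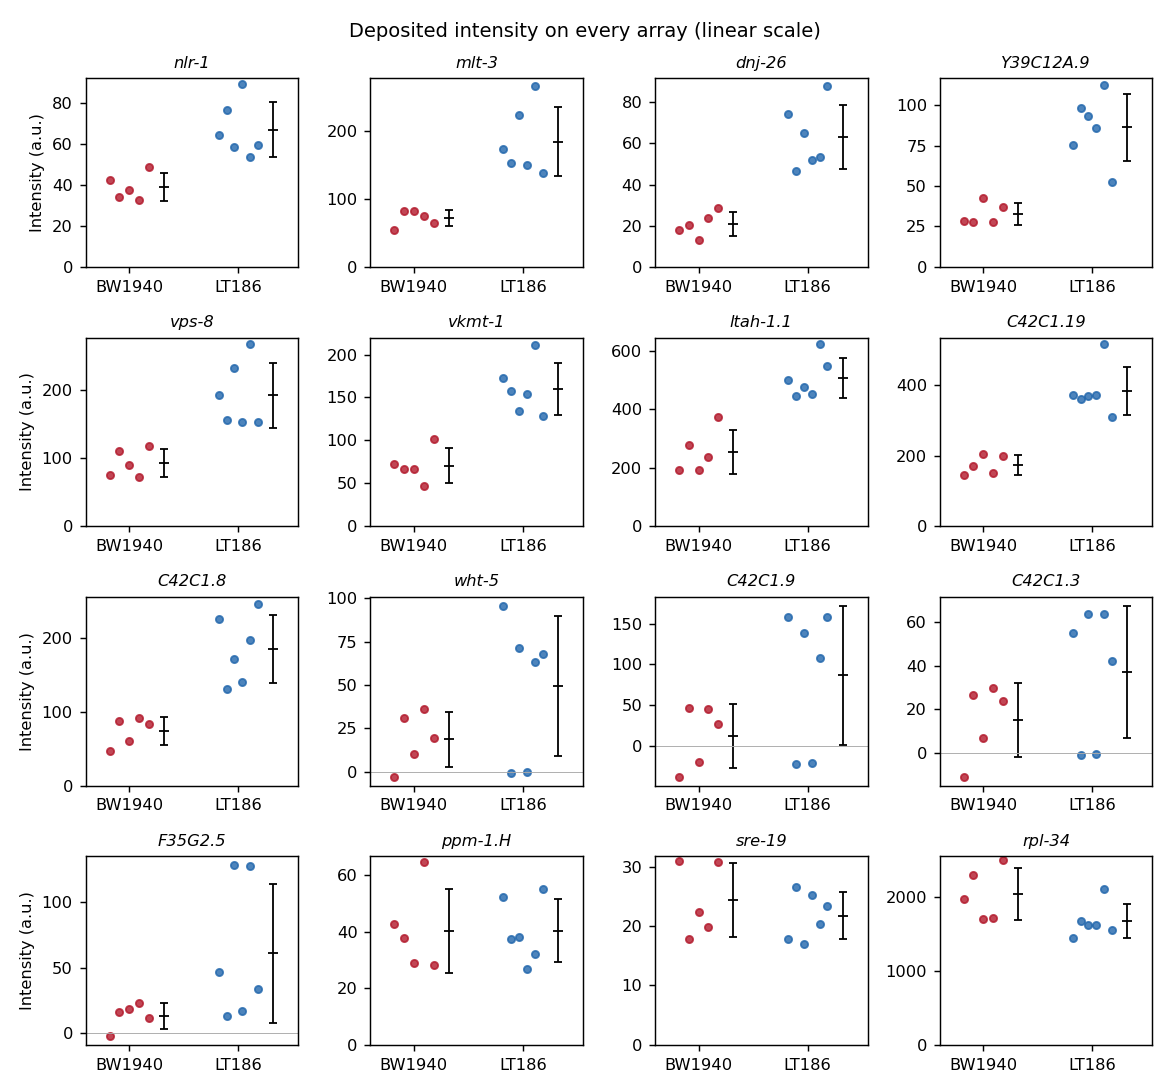
Deposited intensity on each array (y axis, arbitrary units, each panel on its own scale) for 16 members, with BW1940 (n = 5) left of LT186 (n = 6) and bars for the mean ± SD. The strains are separated in the first 9 panels (nlr-1, mlt-3, dnj-26, Y39C12A.9, vps-8, vkmt-1, ltah-1.1, C42C1.19 and C42C1.8), LT186 replicates 2 and 4 lie near or below 0 for wht-5, C42C1.9 and C42C1.3, and F35G2.5, ppm-1.H, sre-19 and rpl-34 overlap.

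Some members had nearly equal or overlapping values in the strains. Among the class E chemoreceptors, sre-19 read 31.0, 17.9, 22.3, 19.9 and 30.8 in BW1940, against LT186 arrays with lowest 17.0, median 21.9, highest 26.6, and sre-15 read 13.2, 6.02, 7.04, 6.48 and 13.3 in BW1940, against LT186 arrays with lowest 5.37, median 7.96, highest 14.9. The strains overlapped in both, with log2 fold changes of 0.11 (SE 0.14) for sre-19 and -0.01 (SE 0.17) for sre-15, whose sign turned in 9 alternative settings. sre-18 averaged 15.1 ± 2.86 in BW1940 and 20.9 ± 7.84 in LT186 and sre-16 averaged 9.81 ± 3.10 in BW1940 and 16.2 ± 7.30 in LT186, with log2 fold changes of -0.27 for sre-18 and -0.37 for sre-16 and overlapping arrays. ppm-1.H, a PP2C-family phosphatase gene, read 42.7, 37.6, 29.0, 64.6 and 28.1 in BW1940, against LT186 arrays with lowest 26.9, median 37.8, highest 55.2. The strains covered much the same range, and the log2 fold change of -0.02 (SE 0.21) turned its sign in 5 settings.

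rpl-34 was the one bright member with the higher mean in BW1940. It read 1977, 2298, 1700.5, 1715 and 2495 in BW1940, against LT186 arrays with lowest 1441, median 1618, highest 2109. The strains overlapped, and the ratio of 1.22 (log2 fold change 0.28, SE 0.14) became a log2 fold change of -0.06 after quantile normalization. The dim members F35G2.3 (4.13 ± 1.46 in BW1940 and 9.66 ± 5.38 in LT186) and F19B6.3 (8.75 ± 2.96 in BW1940 and 11.6 ± 4.08 in LT186) overlapped as well.

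The other probe sets of the members gave values in the same direction. Of 5 members with more than 1 single-gene probe set, all 6 other probe sets had a log2 fold change below 0, and in 4 the arrays did not overlap. The second probe set of nlr-1 read 20.01 ± 4.31 in BW1940 and 54.3 ± 13.2 in LT186, a ratio of 0.369, against 0.583 for the brighter one. The other 5 had ratios between 0.541 and 0.7. Probe sets of 8 members end in _s_at, which on this array can match more than 1 transcript.

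Seen array by array, the members' mean log2 value was 5.96, 6.29, 6.12, 6.28 and 6.4 in BW1940, against LT186 arrays with lowest 6.65, highest 7.12 and a mean of 6.90 ± 0.20. All 5 BW1940 arrays were below all 6 LT186 arrays, and the group means differed by -0.69. Over the flanking genes the same means were 6.94 ± 0.14 in BW1940 and 6.95 ± 0.18 in LT186 (SD, n = 5 and 6), and over all genes tested they were 6.27 ± 0.04 in BW1940 and 6.21 ± 0.05 in LT186. Within BW1940, replicate 1 was lowest and replicate 5 highest, and within LT186, replicates 2 and 4 were lowest.

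Within a strain the members varied only loosely together. Over the 17 bright members with lower values, the coefficient of variation had a median of 17.4% in BW1940 and 19.7% in LT186. The highest, 327% in BW1940 and 99.3% in LT186, belonged to C42C1.9, which has arrays below 0. The correlation of their deviations from the strain means across the 11 arrays had a median of 0.27 over pairs (range -0.82 to 0.92), beside 0.0025 over 44 bright flanking genes, and the pairs share arrays and their scaling.

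**Figure D4:**
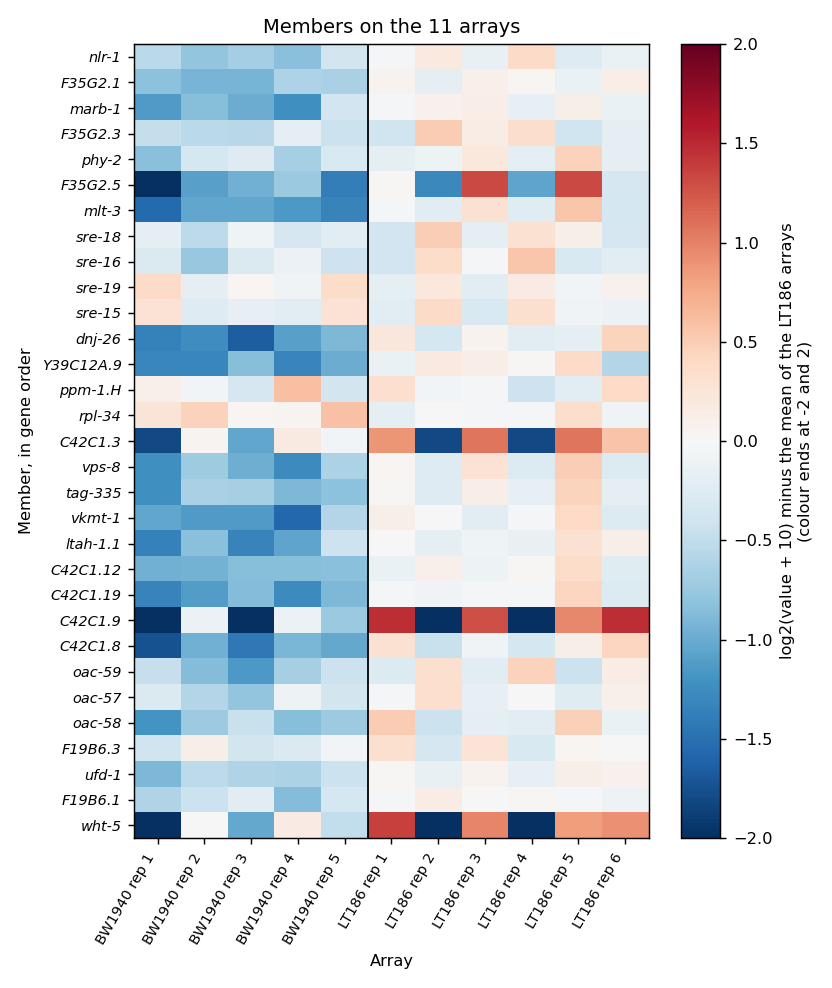
Log2 value of each member on each array minus the gene's mean over the LT186 arrays (colours end at -2 and 2), with genes in chromosome order and BW1940 left of LT186. Most members are lower across all 5 BW1940 columns, and C42C1.3, C42C1.9 and wht-5 are also low in LT186 replicates 2 and 4.

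The variation among arrays of 1 strain was not used to choose the run, and it was tested against the sperm score, the mean log2 value of 43 sperm-specific genes (major sperm proteins and others). L4 hermaphrodites are making sperm, so transcripts of that lineage change quickly over the stage. The score was 7.04, 8.92, 7.82, 9.29 and 9.15 in BW1940, against LT186 arrays with lowest 5.32 and highest 9.40, and BW1940 replicate 1 and LT186 replicates 2 and 4 were the low arrays. In a limma fit with strain and score, 6 of the 31 members rose with the score and 3 fell, beside 15.5% and 14.4% of all genes tested (adjusted p under 0.05). The members' shares are close to these background shares. Without LT186 replicate 2 the 9 members became 4, and without LT186 replicate 4 they became 5.

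The members that rose include 3 with steep slopes. C42C1.9 read -38.4, 45.8, -20.0, 45.7 and 26.4 in BW1940, against LT186 arrays with lowest -22.1, median 123, highest 158. C42C1.3 read -11.1, 26.3, 6.98, 29.7 and 23.6 in BW1940, against LT186 arrays with lowest -0.762, median 48.4, highest 63.7. Both were at or below 0 on the 3 arrays of low score. C42C1.9 was also below 0 on BW1940 replicate 3, where C42C1.3 was low at 6.98, and both were higher on the other arrays. Their slopes were 1.05 (SE 0.08, limma adjusted p = 1.36e-06) for C42C1.9 and 0.73 (SE 0.05, limma adjusted p = 4.57e-07) for C42C1.3, in log2 units per unit of score. wht-5, given above, had a slope of 0.81 (SE 0.06, limma adjusted p = 9.58e-07). In all 3 genes the arrays below 0 were set to 0 before the fit, so they entered at 1 shared value. The part of this floor in the slopes and in the standard errors was not tested.

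F35G2.5 read -2.58, 16.1, 18.2, 22.9 and 11.1 in BW1940, against LT186 arrays with lowest 12.7, median 40.1, highest 129, and rose with a slope of 0.46 (limma adjusted p = 0.01). Its arrays overlapped between strains, although its log2 fold change of -1.33 (SE 0.52) was the largest in size of the run. C42C1.8 rose with a slope of 0.19 (limma adjusted p = 0.0074) and F19B6.3 with 0.13 (limma adjusted p = 0.031). The 3 members that fell were all chemoreceptor genes, sre-18 with -0.14, sre-16 with -0.16 and sre-15 with -0.13 (limma adjusted p of 0.0257 for sre-18, 0.023 for sre-16 and 0.0451 for sre-15). These genes are dim and near the offset of 10. Their means over the 11 arrays were 18.3 for sre-18, 13.3 for sre-16 and 9.32 for sre-15. None of the 3 passed with LT186 replicates 2 and 4 averaged, nor without LT186 replicate 2 or without LT186 replicate 4. Nothing is therefore read from their shared family. With that pair averaged, 5 members rose. C42C1.3, C42C1.8, C42C1.9 and wht-5 passed under all settings tried for the slope.

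**Figure D5:**
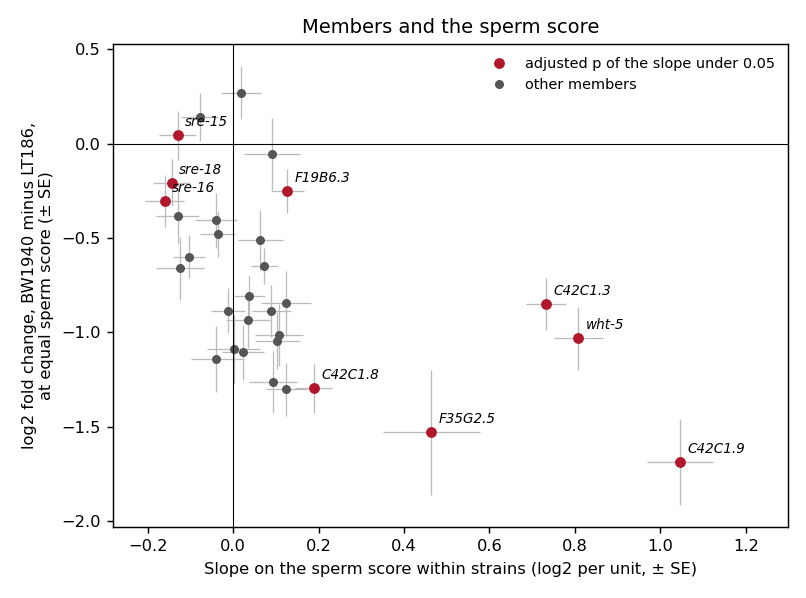
Slope of each member on the sperm score within strains (x axis, log2 units per unit of score, with its standard error) against its strain difference with the score in the fit (y axis, log2). C42C1.9, wht-5 and C42C1.3 stand to the right with slopes of 1.05, 0.81 and 0.73, and nearly all members lie below 0 on the y axis.

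With the score in the fit, the strain difference of these members had a smaller standard error. C42C1.9 had a log2 fold change of -1.23 (SE 0.93) without the score and -1.69 (SE 0.23) with it, C42C1.3 had -0.53 (SE 0.65) and -0.85 (SE 0.14), and wht-5 had -0.68 (SE 0.72) and -1.03 (SE 0.17). The median over the members became -0.85, and 21 of 31 were called lower, where 5.05% of all genes were (limma, adjusted p under 0.05), again a description of the contrast that chose the run. Without the 3 arrays of low score the median was -0.84 with 3 members called lower, C42C1.8, dnj-26 and mlt-3. Fewer arrays cost calls everywhere, with 24 of 18801 probe sets called lower in that fit, against 62 in the main fit.

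Markers of other cell types differed between the strains to various degrees. The 7 intestinal markers summed to 5240 to 5909 in BW1940 and 3318 to 4183 in LT186, without overlap. Their median log2 fold change was 0.57. The 13 germ line and oocyte markers overlapped, with sums of 2410 to 3429 in BW1940 and 2936 to 5000 in LT186. Their median was -0.47, below 0 as for the run. The 43 sperm genes summed to 12674 to 46685 in BW1940 and 2252 to 52414 in LT186, with a median of 0.58. LT186 replicates 2 and 4 had sperm scores of 5.61 and 5.32. The other LT186 arrays scored 9.17 to 9.40, beside 7.04 to 9.29 in BW1940, so nothing is read from that median. The 8 neuronal, 7 muscle and 7 hypodermal markers overlapped between strains, with median log2 fold changes of 0.10, 0.19 and 0.11. Over the 6 lists limma called 0 of 85 genes at an adjusted p under 0.05 (14 at an unadjusted p, 5 of them intestinal and 6 of the germ line), the methods' t-test called 3, all intestinal, and none lay at or below 0 on every array. The share of all genes at an unadjusted p was not counted, so nothing is read from those 14. The part of these differences in the values of the run was not tested.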

How the data were processed

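Labelled RNA of 5 BW1940 and 6 LT186 populations was read on Affymetrix arrays. Per the labels and methods, the authors derived the deposited intensity of each probe set, a linear value, with Microarray Suite 5 and Probe Profiler 1.3.11 and scaled every array to 100. Detection p-values were not used here, and no further normalization was applied. Annotation gave 20766 of 22548 probe sets a single symbol, 887 several and 895 none, and only single-symbol probe sets were named. Chromosome and gene order came from the WBcel235 gene table of RefSeq.

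Negative values were raised to 0, and log2(value + 10) was used. The 18801 probe sets that reached 10 on 2 or more of the 11 arrays were fitted with limma 3.58.1 in R 4.3.3 (lmFit, eBayes), strain being the only term, and p-values were adjusted by Benjamini and Hochberg over all of them at 0.05. The sperm score slope came from the same model with the score added, and shares exclude the sperm genes. Other steps used Python 3.11.15, numpy 2.4.6, pandas 2.3.3 and matplotlib 3.10.9. The paper's methods name a modified t-test of Probe Profiler, which was not rerun. What is called the methods' t-test here is a plain equal-variance t-test on the same log2 values. Its calls are at a Benjamini and Hochberg adjusted p under 0.05, so they are not the paper's calls. The fit was tested on simulated data. The number of arrays limits the precision.

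The members and lists were chosen with earlier results of these data known. Every member is named. For some genes the BW1940 values are given array by array, with the lowest, median and highest LT186 value. They are the ends of the run, the 10 largest and 3 smallest log2 fold changes, those above 0 and the 3 steepest score slopes. Flanking genes are the 3 nearest and the 3 with the largest change on each side, with M18.3 and K08E4.3 added for their separated arrays. Alternatives covered the offset, filter, scaling, array weights, replicate block, probe set rule, test, sperm score, averaging of LT186 replicates 2 and 4, and each array left out. These replicates were the closest pair, with a median absolute log2 difference of 0.114, against 0.18 for the next pair, and were kept as separate samples. P-values measure the spread between the populations sampled for 1 line per strain.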

Additional observations from a re-analysis of the deposited data

Results flagged for a closer look

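Among 62 groups of a member's values in 1 strain, 2 had a single array far from the rest, where chance flags about 1 in 20 groups. C42C1.19 read 517 in LT186 replicate 5, with the other LT186 arrays between 311 and 374, so that its gap to the nearest array was 0.696 of the group's range. rpl-34 read 2109 in LT186 replicate 5, with the other LT186 arrays between 1441 and 1675 and a gap of 0.649 of the range. Both lie on the array with the highest members' mean of the 11 (7.12).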

How the results depend on the processing

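The median log2 fold change of the members, -0.71, stayed between -0.87 and -0.59 under every alternative run. Counts moved more. The 13 members called lower became 21 with the sperm score as a covariate, 3 without the 3 arrays of low sperm score, and 6 to 13 with 1 array left out (6 without BW1940 replicate 3, 8 without BW1940 replicate 1 or LT186 replicate 1). Over all probe sets the 191 calls became 443 with array weights, 416 with no filter, 305 with an offset of 32, 381 by the methods' t-test, 83 without the arrays of low score, 1612 with the score as a covariate and 78 to 151 with 1 array left out. Of the 191, 129 were higher and 62 lower, against 86 and 90 after quantile normalization and 71 and 77 after median centring. The 9 members called on the sperm score slope became 5 with LT186 replicates 2 and 4 averaged, 5 with array weights, 5 with a filter of 20 on 5 arrays and 4 to 10 with 1 array left out (4 without LT186 replicate 2, 5 without replicate 4). Over all probe sets 5445 slope calls became 3027 with that pair averaged and 3006 to 6367 with 1 array left out. A fit with the replicate number as a block called 5 probe sets and 0 members (median -0.68). LT186 replicate 6 has no partner and adds nothing to that fit. Samples of 1 number did not deviate together (correlations of -0.69, -0.64, -0.30, -0.59 and 0.11 for numbers 1 to 5), and the numbers were not taken as pairs. Those deviations include the spread in sperm score, so the correlations cannot exclude a batch shared by samples of 1 number. Single-gene differences stayed within the replicate spread in 731 cases and moved beyond it in 7. Apart from settings that drop arrays or genes, the cause was not tested. Dim members close to the offset limit what could be measured.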
